A study of Mus musculus with 2 samples.

Results

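Cells with the genes of mature dendritic cells were selected on measured RNA counts. A droplet barcode was kept as a cell when it had at least 500 genes, 1000 to 60000 unique molecular identifiers (UMIs, each standing for 1 captured RNA molecule) and at most 15% mitochondrial UMIs. A kept cell was a gate member when it had at least 1 UMI of Ccr7, at least 5 UMIs of Fscn1, Ccl22 and Ccr7 together, and at least 10 UMIs of the MHC class II genes H2-Aa, H2-Ab1 and Cd74 together. Members also had C1qa, C1qb and C1qc, genes of macrophages, below 0.1% of their UMIs, and no UMI of Cd3e (T cells) or Cd79a (B cells). The rule found 302 members among 24160 kept cells. Of these, 87 of 11713 came from the library labelled KPC-shV and 215 of 12447 from the library labelled KPC-shZEB1.

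KPC cells are a mouse pancreatic cancer line derived from genetically engineered mice with Pdx-1-Cre, a recombinase expressed in the pancreatic lineage. The cells carried a control hairpin in the group KPC-shV and one targeting Zeb1 in the group KPC-shZEB1 and were injected into the pancreas of mice, so that the hairpin was in the tumour cells and not in the dendritic cells of the host. From each group, 1 orthotopic allograft tumour was dissociated, and single-cell RNA was sequenced with 10x Genomics 3′ chemistry. The labels name no drug, whereas the study's text states that the mice whose tumours were sequenced were treated with gemcitabine. The study's mice were 4 to 6 weeks old and of the strains C57BL/6J, BALB/c or NSG. Its text takes the 2 sequenced tumours from an experiment in immunocompetent mice, and their strain is not named in the sources used here. Mouse, tumour, dissociation and library were the same split as the hairpin, so they cannot be told apart. No test between the libraries was possible, and every interval given is an exact 95% interval for counting error only.

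Dendritic cells take up antigen in tissue and present it to T cells. On activation they pass into a mature state in which the chemokine receptor Ccr7 guides them along lymphatics to the draining lymph node and Fscn1, an actin-bundling protein, supports their long dendrites. Mature dendritic cells carry costimulatory molecules and also inhibitory ligands such as Cd274 (PD-L1), and they release Ccl22 and Ccl17, chemokines that attract Ccr4-bearing T cells. Type 1 dendritic cells, which carry Xcr1 and Clec9a, and type 2 dendritic cells, which carry Cd209a, are the less mature conventional types and can both enter the mature state.

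The libraries held 130941086 and 143461224 UMIs over 12594 and 13271 barcodes (KPC-shV and KPC-shZEB1, in this order throughout), and kept cells had medians of 3764 and 4381 UMIs. Zeb1 was checked in tumour cells, taken as cells with keratin UMIs and no Ptprc: it stood at 144 CPM (counts of a gene per 1000000 UMIs of the summed cells; interval, 134 to 154; 343 cells) and at 179 CPM (165 to 193; 273 cells). Zeb1 RNA was therefore not lower where the label names the hairpin, and the libraries are called by their labels. The libraries shared 46 barcodes, 40 of them kept in both, and 4 members labelled KPC-shZEB1 had the barcode of a kept cell labelled KPC-shV. Neutrophils, by S100a8, S100a9 and Csf3r, made up 31.5% and 11.7% of kept cells. A doublet score above 0.2 was given to 1 and 7 members.

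The name of the cells was checked by clustering class II cells on genes other than those of the gate, which gave 23 clusters. Class II cells were all 6085 kept cells with at least 10 class II UMIs and no UMI of Cd3e or Cd79a. The gate did not pick out a uniform population. A cluster of 99 cells held 89 members (24 and 65); its leading genes were Ccr7, Ccl22, Fscn1, Syn3, Adam23 and Ccl5, and these are called the mature-cluster members. Another cluster, led by Ccl17, Pkib, Htr7, Napsa, Plet1 and Zfp366, held 65 members (17 and 48) among 209 cells. Both clusters together held 154 of the 302 members (51.0%). The remaining 148 members (46 and 102) were spread over other clusters.

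**Figure D1:**
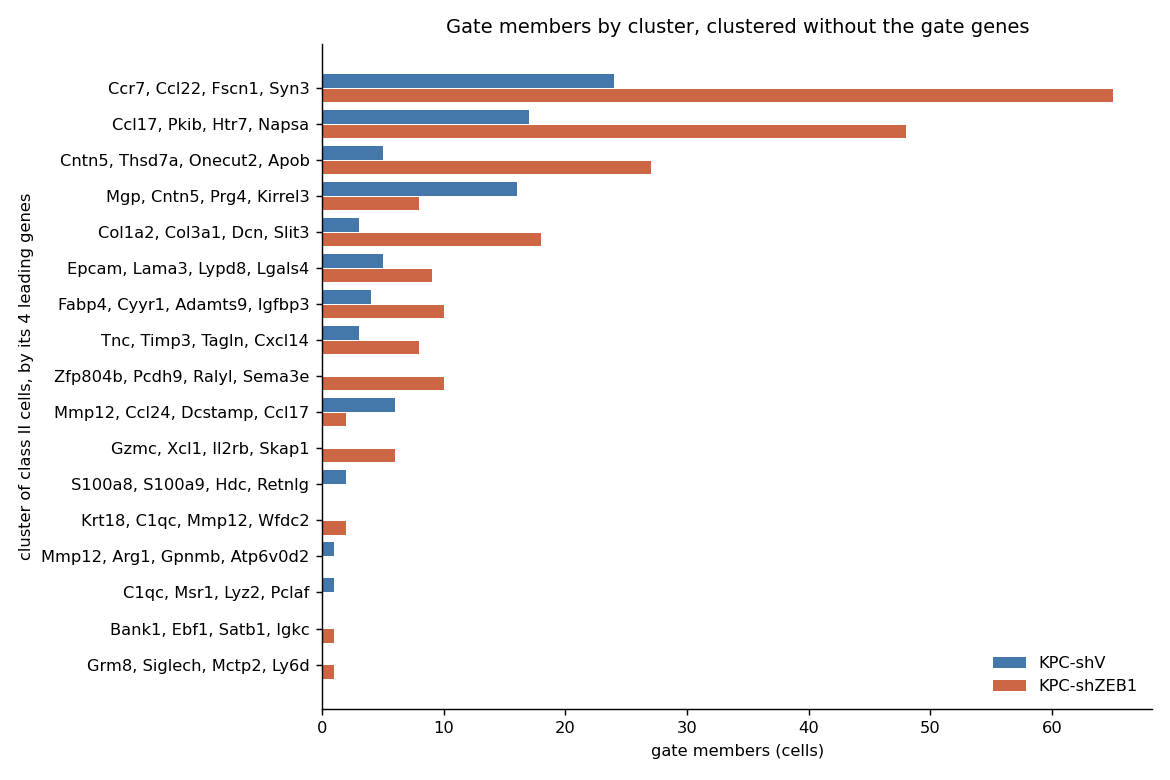
Number of gate members (x axis, cells) in each cluster (y axis, named by its 4 leading genes), with a bar per library. The mature cluster held 24 and 65 members and the Ccl17-led cluster 17 and 48, and the other bars belong mostly to clusters led by keratin, collagen or endothelial genes.

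Members outside both dendritic clusters were mostly cells with RNA of other lineages. Of all members, 128 (42.4%) lay in 8 clusters with high keratin, collagen or endothelial RNA: 82 in keratin clusters, 32 in collagen clusters and 14 in an endothelial cluster. Another 20 (6.62%) lay in macrophage, neutrophil, lymphocyte or similar clusters. In the 148 cells Flt3, the receptor for the growth factor of dendritic cells, stood at 3.13 and 10.7 CPM, against 435 and 413 CPM in the mature-cluster members. Col1a1 stood at 1665 and 3456 CPM and Krt18 at 896 and 1149 CPM, against 147 and 195 CPM and 92.4 and 141 CPM in the mature-cluster members. These cells were deep, with medians of 34374.5 and 32678.5 UMIs against 11629 and 10790.

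How each kind of member met the gate also differed. The mature-cluster members had medians of 37.5 and 41 UMIs of the 3 gate genes, the Ccl17-cluster members 12 and 17, and the remaining members 9 and 7.5. Exactly 1 Ccr7 UMI was found in 39 of 46 and 74 of 102 of the remaining members, and in none of the mature-cluster members. In 36 of 46 and 82 of 102 of the remaining members, Fscn1 alone gave over 50% of the gate sum. Fscn1 is also expressed by tumour cells: the tumour cells above had 99.0 and 78.2 CPM of Fscn1, and the remaining members 197 and 187 CPM.

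**Figure D2:**
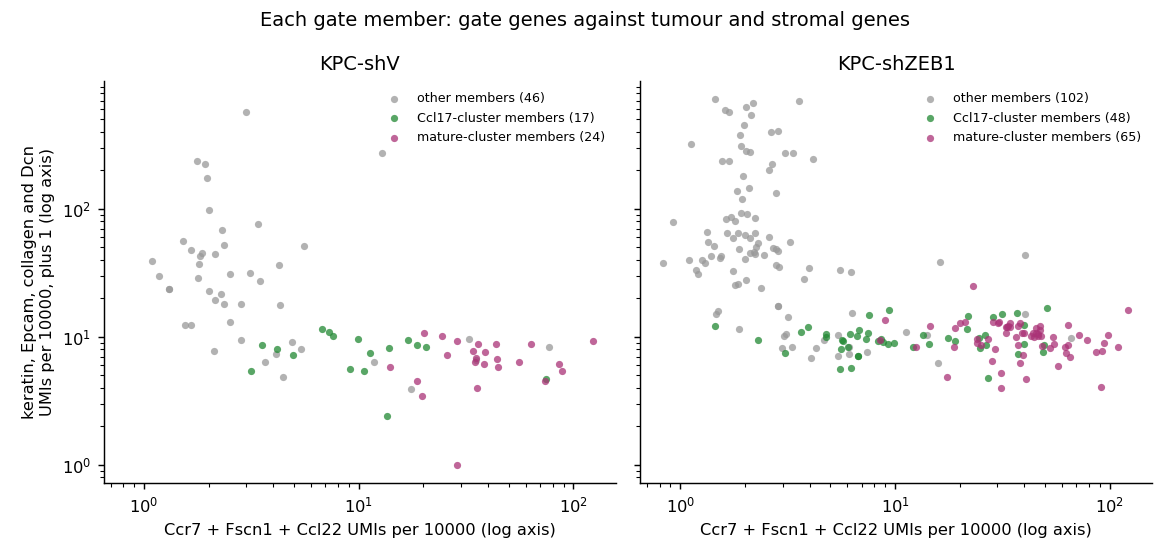
Each point is a gate member; the x axis gives its UMIs of Ccr7, Fscn1 and Ccl22 per 10000 UMIs and the y axis its keratin, Epcam, collagen and Dcn UMIs per 10000 plus 1, both on log scales, with a panel per library and a colour per set. The mature-cluster members sit to the right, with medians of 35.7 and 39.0 per 10000 on the x axis, and the members outside both dendritic clusters sit to the left, with medians of 2.36 and 2.19.

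Near the threshold of the gate few cells were in the mature cluster. Just outside, 19 and 77 cells had 3 or 4 gate UMIs, and none lay in the mature cluster. Just inside, 16 and 45 cells had 5 or 6, and again none did. Among 34 and 83 members with at least 20 gate UMIs, 23 and 56 lay in the mature cluster. The results that follow therefore describe the mature-cluster members and give the whole gate beside them where the values part. The clusters were drawn from the same cells, so differences between them are descriptions, without a test.

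The gate genes chose the members, so their presence in the mature-cluster members was set in part by the rule, and Ccl22 was uneven. Ccr7 (ENSMUSG00000037944, chr11:99144196-99155077, minus strand, GRCm38) ranged per cell from 487 CPM over a median of 1624 to 3559 CPM among the 24 cells labelled KPC-shV, and from 315 over 1621 to 4562 CPM among the 65 labelled KPC-shZEB1. Fscn1 (ENSMUSG00000029581, chr5:142960343-142973185, plus strand) ranged from 451 over 1453 to 4450 CPM and from 74.0 over 1251 to 5671 CPM. Every mature-cluster member had both genes, which the rule required for Ccr7 and favoured for Fscn1. The ranges of the libraries overlapped over most of their length. Ccl22 (chr8:94745590-94751699, plus strand) ranged from 0 over 557 to 7765 CPM and from 0 over 566 to 5576 CPM. Summed over cells, the library labelled KPC-shZEB1 stood at 1.18 times the other for Ccr7 (interval of the ratio, 1.06 to 1.31), 0.933 times for Fscn1 (0.838 to 1.04) and 1.05 times for Ccl22 (0.927 to 1.19).

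Cd274 (chr19:29367455-29388095, plus strand), the ligand of the inhibitory receptor PD-1, ranged per cell from 0 over 1429 to 4436 CPM and from 232 over 1533 to 5170 CPM, and it was not used by the gate. Only a small part of all Cd274 RNA lay in these cells. The mature-cluster members held 0.636% and 2.13% of the Cd274 UMIs of their library, and neutrophils stood at 2326 and 1754 CPM against 1752 and 1609 CPM in the mature-cluster members. By contrast, they held 27.5% and 30.6% of all UMIs of Flt3, which the gate did not use, in 0.205% and 0.522% of the kept cells. Their shares of Ccr7 (22.5% and 19.7%) and Ccl22 (22.1% and 17.6%) follow in part from the rule, which used both genes.

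Some markers of dendritic identity that the gate did not use were present in the mature-cluster members. Of the 4 listed markers of all dendritic cells, Zbtb46 and Flt3 were at least 2-fold higher than in the Ccl17-led cells outside the gate. Itgax was at least 2-fold lower and Dpp4 was neither. Zbtb46, a transcription factor of conventional dendritic cells, stood at 472 CPM (interval, 397 to 558) and 475 CPM (429 to 525). Irf8 and Batf3, factors that type 1 dendritic cells need, stood at 951 and 869 CPM and at 263 and 223 CPM. Of 9 listed type 1 markers (median log2 ratio, -3.50), only these 2 were at least 2-fold higher than in the Ccl17-led cells. The other 7 were at least 2-fold lower. The surface markers that define the type 1 state were near the floor, with Xcr1 at 0 and 2.47 CPM and Clec9a at 10.3 and 12.4 CPM. Of 7 measured type 2 markers 5 were at least 2-fold lower than in the Ccl17-led cells and none higher. The type 2 marker Cd209a had no UMI in either library, and at these depths a count of 0 allows up to 10.3 and 3.71 CPM, the level of 3 counts. The T cell, B cell and plasmacytoid marker lists summed to between 6.18 and 33.4 CPM. The tumour epithelium list summed to 236 and 486 CPM and the fibroblast list to 373 and 519 CPM, close to their sums in neutrophils (355 and 490, 533 and 690 CPM).

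The 144 cells of the Ccl17-led cluster outside the gate (39 and 105) were the nearest population with which to compare them. Genes above 20 CPM in the mean of both sets were called when the summed CPM differed at least 2-fold in the same direction in both libraries. Of 6051 such genes, 633 (10.5%) were higher in the mature-cluster members and 624 (10.3%) lower. Of the migration and cytoskeleton genes, 10 of 12 were higher and none lower, with a median log2 ratio of 2.84 against -0.12 over all genes. Ccr7 and Fscn1 are among them and were used by the gate, and without both genes 8 of 10 were higher (median, 2.65). Besides the gate genes, Cacnb3, a calcium channel subunit, stood at 547 and 503 CPM against 0 and 4.45 CPM, at least 133-fold higher in the library labelled KPC-shV, where 3 counts stand for the 0, and 113-fold in the other. Tbc1d4, a regulator of vesicle traffic, stood at 8.27 and 7.26 times and Samsn1, an adaptor protein, at 6.76 and 5.26 times the level of the Ccl17-led cells.

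Inhibitory and regulatory genes were also mostly higher in the mature-cluster members (6 of 10, with 1 lower; median log2 ratio, 1.55). Cd200, the ligand of an inhibitory receptor on myeloid cells, stood at 318 CPM (257 to 390) and 221 CPM (190 to 256) against 0 UMIs and 1 UMI. Socs2, a negative regulator of cytokine signalling, stood at 33.6 and 15.9 times the level of the Ccl17-led cells. Among cytokine genes 4 of 5 were higher and 1 lower. Il15ra, the receptor chain that presents Il15 to lymphocytes, was at 376 CPM in both libraries, 34.2 and 59.1 times the level of the Ccl17-led cells. Of 5 chemokine genes, leaving out Ccl22 of the gate, 1 was higher and 1 lower (Cxcl10). The higher one was Ccl5, which attracts T cells and stood at 3524 and 2812 CPM against 9.62 and 54.1 CPM.

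Genes of antigen uptake and class II presentation stood lower in the mature-cluster members. Of 10 class II genes 7 were lower and none higher (median log2 ratio, -1.45), which was 5 of 7 lower without the 3 genes of the gate (-1.51), and of 9 uptake and sensing genes 6 were lower and none higher (-1.57). H2-Ab1, the class II beta chain and a gene of the gate, stood at 0.147 and 0.261 times and Cd74, the invariant chain, at 0.333 and 0.442 times the level of the Ccl17-led cells. Mrc1, the mannose receptor, stood at 0.166 and 0.321 times. All 5 cell cycle genes were lower as well, with Top2a, a topoisomerase of dividing cells, at 0.0216 and 0.108 times. Class I genes, which show peptides to CD8+ T cells, stood near the background, with 1 of 9 higher and none lower.

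**Figure D3:**
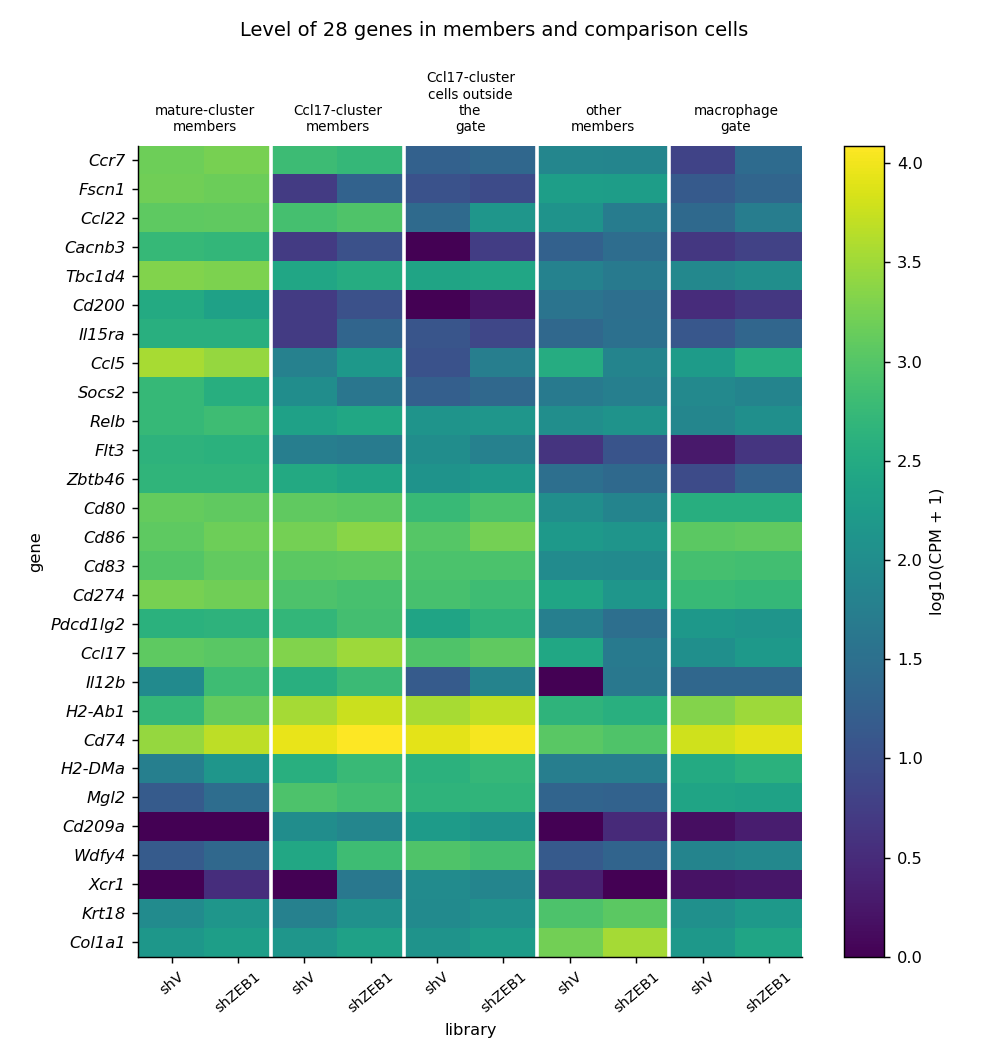
Summed level of 28 genes (rows) in 5 sets of cells in each library (columns), coloured by log10 of CPM plus 1. Ccr7, Fscn1, Cacnb3, Cd200, Il15ra and Ccl5 were highest in the mature-cluster members, the class II genes in the Ccl17-led cells, and keratin and collagen genes in the members outside both clusters.

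The Ccl17-cluster members met the gate with Ccr7 and Ccl22 and little Fscn1, so their levels of Ccr7 and Ccl22 were set in part by the rule. All 209 cells of that cluster, over both libraries, stood at 193 CPM of Ccr7 and 354 CPM of Ccl22. In its members Ccr7 stood at 636 and 526 CPM and Ccl22 at 765 and 903 CPM. Their Fscn1 stood at 4.16 and 18.5 CPM, with a UMI in 1 of 17 and 10 of 48 cells. Ccl17 (chr8:94810453-94812036, plus strand) stood at 2038 and 3052 CPM, against 1201 and 1102 CPM in the mature-cluster members. They kept RNA of the less mature types: Mgl2, a lectin of type 2 dendritic cells, stood at 873 and 706 CPM, and H2-Ab1 at 3436 and 5757 CPM. They also differed from the mature-cluster members in the genes named above, with Cacnb3 at 4.16 and 9.24 CPM and Il15ra at 4.16 and 20.8 CPM. Of Cd86 and Cd80, which give T cells their second signal, Cd80 stood at 1227 and 1130 CPM, close to the 1321 and 1224 CPM of the mature-cluster members. Cd86 stood at 1743 and 2301 CPM, above their 1204 and 1527 CPM by less than 2-fold.

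Genes of the NF-kB pathway, which drives maturation after sensing of danger signals, were expressed in the mature-cluster members, and 3 of 11 were higher than in the Ccl17-led cells and none lower. Relb, a subunit of the noncanonical pathway, stood at 554 and 665 CPM, 4.25 and 4.84 times the Ccl17-led level. Promoters were searched for the 10-base NF-kB pattern GGGNNNTTCC on both strands in the 250 bases before the transcription start (RefSeq, GRCm38.p6). It was present in 1527 of 32851 windows of all genes (4.65%), and 9 of 11 genes of the NF-kB list had a promoter in the table. The windows of the 5 that held it are printed because they belong to the pathway described here, in the direction of the gene with the match in capitals (a match on the other strand reads GGAANNNCCC).
Nfkbie: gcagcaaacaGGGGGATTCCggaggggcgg
Nfkb2: gatcgtcacgGGAATTCCCCccctcggggg
Nfkbia: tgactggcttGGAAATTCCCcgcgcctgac
Rel: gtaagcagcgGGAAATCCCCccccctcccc
Tnfaip3: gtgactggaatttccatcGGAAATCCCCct
These windows lie at chr17:45555584-45555613 (plus strand) for Nfkbie, chr19:46304689-46304718 (plus) for Nfkb2, chr12:55492657-55492686 (minus) for Nfkbia, chr11:23771041-23771070 (minus) for Rel and chr10:19015411-19015440 (minus) for Tnfaip3. A match is a description of the letters and not a bound site. Summed levels in the mature-cluster members were 30.8 and 90.3 CPM for Nfkbie and 1098 and 1202 CPM for Nfkbia, both inhibitors of NF-kB, and 2344 and 2328 CPM for Rel, a subunit.

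The share of gate members among kept cells was higher in the library labelled KPC-shZEB1, and the ratio depended on what they were counted against. Gate members made up 0.743% (interval, 0.595 to 0.915) and 1.73% (1.51 to 1.97) of kept cells, a ratio of 2.33 (1.80 to 3.02). Outside the neutrophils, whose share differed between the libraries, the ratio was 1.80 (1.40 to 2.34), and among the class II cells it was 1.52 (1.18 to 1.97). These class II cells leave out every cell with a UMI of Cd3e or Cd79a, and so class II B cells with Cd79a. The neutrophils leave out cells with at least 10 class II UMIs, so a class II cluster led by S100a8 and S100a9 (126 and 301 cells) is not counted among them. Against the gate members and the type 1 and type 2 gates together the ratio was 1.02 (0.792 to 1.32), where the gate members themselves made up 79.8% and 81.4% of the cells counted, which holds the ratio near 1. The mature-cluster members alone made up 0.205% (0.131 to 0.305) and 0.522% (0.403 to 0.665) of kept cells, a ratio of 2.55 (1.57 to 4.26). The corresponding ratios were 1.98 (1.22 to 3.30) outside the neutrophils and 0.966 (0.597 to 1.61) among all cells of the mature and the Ccl17-led clusters. Type 1 gate cells had a ratio of 1.84 (1.04 to 3.32) among kept cells. Thus the mature-cluster members took 29.6% and 28.6% of the cells in both dendritic clusters, and a difference in this share was not detectable at these numbers of cells. Without the 4 members with shared barcodes the ratio over kept cells was 2.28 (1.77 to 2.96), and 2.43 (1.50 to 4.07) in the mature cluster.

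Between the libraries the mature-cluster members differed in class II genes, in Il12b and in a few regulatory genes of the lists. Mki67 also differed, with few UMIs in the library labelled KPC-shV. Of 5784 genes above 20 CPM in the mean of both libraries, 289 (5.00%) were at least 2-fold higher in the library labelled KPC-shZEB1 and 212 (3.67%) at least 2-fold lower. Over the whole gate these were 136 of 7119 (1.91%) and 46 (0.646%). In the mature cluster 14 of 85 measured list genes differed at least 2-fold, 13 of them higher and 1 lower. The median log2 ratio over all genes was -0.02.

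**Figure D4:**
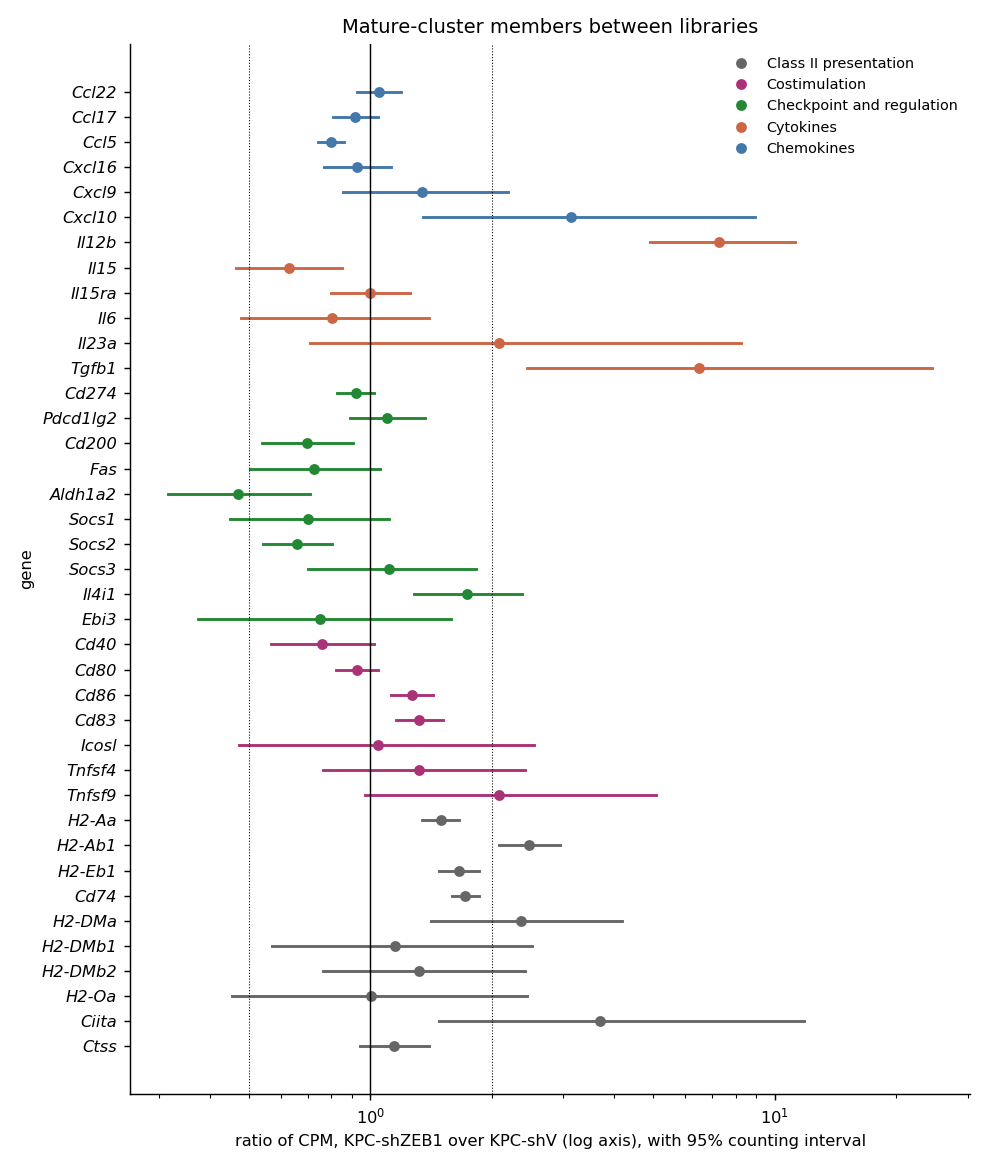
Ratio of summed CPM in the mature-cluster members, library labelled KPC-shZEB1 over library labelled KPC-shV (x axis, log scale), for genes of the chemokine, cytokine, checkpoint, costimulation and class II lists; points are ratios, bars exact 95% counting intervals and dotted lines a 2-fold difference. Il12b (7.27), Tgfb1 (6.51) and Ciita (3.69) lie farthest to the right and Aldh1a2 (0.471) to the left of the lower line.

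All 10 class II genes had a log2 ratio above 0 (median, 0.65), and 3 of 10 were at least 2-fold higher. H2-Ab1 (ENSMUSG00000073421, chr17:34257689-34269419, plus strand), one of the genes that chose the members, ranged per cell from 0 over 160 to 3972 CPM with a UMI in 19 of 24 cells, and from 101 over 613 to 8277 CPM with a UMI in 65 of 65 cells. The ranges overlapped, while the medians lay apart. Its summed level was 527 CPM (447 to 617) and 1302 CPM (1225 to 1383), a ratio of 2.47 (2.09 to 2.95). Cd74 had a ratio of 1.72 (1.59 to 1.85), H2-Eb1 1.66 (1.48 to 1.86) and H2-Aa 1.49 (1.34 to 1.66). Ciita, the transactivator of class II genes, stood at 17.1 and 63.1 CPM, with a UMI in 4 of 24 and 22 of 65 cells.

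Class II RNA was also higher in the same library in neutrophils, T cells and tumour cells, and the part of this in the difference was not tested. In neutrophils H2-Ab1 stood at 99.1 and 322 CPM, a ratio of 3.25, and Cd74 at 228 and 735 CPM, a ratio of 3.22. The tumour cells had 150 and 435 CPM of H2-Ab1, and the T cells 188 and 897 CPM. In the Ccl17-cluster members H2-Ab1 had a ratio of 1.68, in the Ccl17-led cells outside the gate 1.40 and in macrophages 1.43. Lyz2, a macrophage lysozyme, showed the same pattern, at 222 and 508 CPM in the mature-cluster members and 409 and 850 CPM in neutrophils. The macrophage marker list summed to 643 and 1673 CPM in the mature-cluster members and to 938 and 2435 CPM in neutrophils, and the neutrophil list to 1612 and 646 CPM in the mature-cluster members.

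Il12b (ENSMUSG00000004296, chr11:44400063-44414033, plus strand), the shared subunit of interleukin 12 and interleukin 23, was the cytokine gene with the largest ratio. Per cell it ranged from 0 over 0 to 677 CPM and from 0 over 0 to 5941 CPM, so that most cells of each library had none. A UMI was found in 8 of 24 and 31 of 65 cells. None of the former and 11 of the latter had at least 10 UMIs. The summed level was 89.0 CPM (58.1 to 130) and 647 CPM (593 to 705), a ratio of 7.27 (4.91 to 11.2). The 5 cells with most Il12b held 84.6% and 63.9% of these UMIs, so that the counting interval covers little of the difference between cells.

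With every cell thinned to 5000 UMIs, 20.8% (7.13 to 42.2) and 40.0% (28.0 to 52.9) of the mature-cluster members had an Il12b UMI, against 33.3% and 47.7% before thinning, and these intervals overlapped. In the tumour cells, which should lack Il12b, 0 of 213 (interval, 0% to 1.72%) and 1 of 168 (0.0151% to 3.27%) had one after thinning. The tumour cells had medians of 10330 and 7609 UMIs before thinning, and 130 and 105 shallower ones were left out. In the Ccl17-cluster members Il12b stood at 379 and 617 CPM, a ratio of 1.63 (1.30 to 2.06), from 3 of 17 and 12 of 48 cells. Macrophages stood at 22.1 CPM in both libraries. T cells stood at 2.49 and 26.9 CPM, a ratio of 10.8 (6.11 to 21.1), and B cells at 0.472 CPM (1 UMI) and 22.0 CPM, so Il12b was also higher in the library labelled KPC-shZEB1 in lymphocytes, at levels below those of the mature-cluster members. The part of this in the difference was not tested. The gate members held 18.3% and 39.9% of all Il12b UMIs of their library. Il12a, the other chain of interleukin 12, had no UMI in the mature-cluster members of either library, and Il23a, the partner in interleukin 23, stood at 13.7 and 28.4 CPM, a ratio of 2.08 with an interval (0.710 to 8.27) that includes 1.

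**Figure D5:**
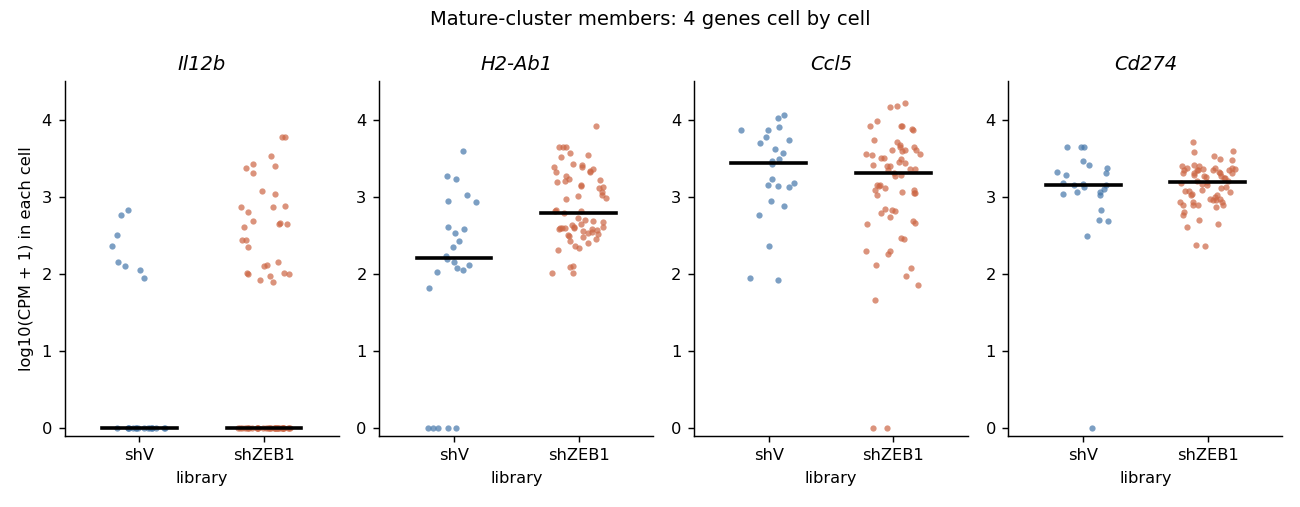
Level of Il12b, H2-Ab1, Ccl5 and Cd274 in each mature-cluster member (points; y axis, log10 of CPM plus 1), by library; lines are medians. Il12b is at 0 in most cells of both libraries, H2-Ab1 has medians of 160 and 613 CPM, and Ccl5 and Cd274 overlap.

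Other cytokine and regulatory genes went in both directions. Tgfb1 (chr7:25687002-25705077, plus strand), a cytokine that restrains T cells, stood at 13.7 CPM (3 of 24 cells) and 89.0 CPM (38 of 65 cells), a ratio of 6.51 (2.43 to 24.5). Over the whole gate its ratio was 1.13. Aldh1a2 (chr9:71215789-71296243, plus strand), which makes retinoic acid, was the only list gene at least 2-fold lower, at 157 CPM (13 of 24 cells) and 74.2 CPM (27 of 65 cells), a ratio of 0.471 (0.316 to 0.708). Over the whole gate this ratio was 1.38, in the other direction. Il4i1 (chr7:44816387-44840809, plus strand), an amino acid oxidase that restrains T cells, ranged per cell from 0 over 127 to 751 CPM and from 0 over 173 to 1378 CPM, with a ratio of 1.73 (1.28 to 2.38). In the Ccl17-cluster members its ratio was 0.546 (0.349 to 0.871), which rests on few cells. Those labelled KPC-shV had 31 UMIs in 5 of 17 cells, and 1 cell held 17 of them. Il15 had a ratio of 0.628 (0.466 to 0.851) and its receptor chain Il15ra 0.999 (0.801 to 1.25).

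Most genes of migration, costimulation and inhibition were close between the libraries. None of 12 migration and cytoskeleton genes differed at least 2-fold (median log2 ratio, -0.12). Cd274 had a ratio of 0.918 (0.829 to 1.02) and Cd80 stood at 1321 and 1224 CPM. Cd83, a marker of maturation, ranged per cell from 297 over 876 to 2254 CPM and from 193 over 1196 to 6553 CPM, and its summed level was 979 and 1291 CPM. Cd200 stood at 318 and 221 CPM, a ratio of 0.696, and Socs2 at 554 and 365 CPM, a ratio of 0.658, both lower in the library labelled KPC-shZEB1 by less than 2-fold. Of 7 costimulation genes 1, Tnfsf9, a ligand of a T cell activating receptor, passed 2-fold, at 27.4 and 56.9 CPM with an interval of the ratio (0.971 to 5.10) that includes 1.

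Chemokines went in different directions. Ccl5 (chr11:83525778-83530518, minus strand) ranged per cell from 81.9 over 2763 to 11504 CPM and from 0 over 2023 to 16317 CPM. Its ranges overlapped almost wholly, and its summed level had a ratio of 0.798 (0.741 to 0.860), whereas in neutrophils it stood at 22.8 and 75.3 CPM. Ccl17 ranged from 0 over 464 to 6803 CPM and from 0 over 482 to 4838 CPM, with a ratio of 0.918 (0.810 to 1.04). Cxcl10, an interferon-induced chemokine that attracts T cells, stood at 20.5 and 64.3 CPM, a ratio of 3.13 (1.35 to 8.93), the only chemokine at least 2-fold apart. These levels were below those of Cxcl10 in T cells (202 and 213 CPM) and B cells (95.3 and 233 CPM). The part of RNA from other cells in the difference was not tested. In the mature-cluster members Cxcl16 stood at 524 and 485 CPM, a ratio of 0.926 (0.766 to 1.12).

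Of the remaining lists, interferon response genes had 1 of 5 at least 2-fold higher, Isg15 at 24.0 and 64.3 CPM. NF-kB genes had 1 of 11, Nfkbie, and class I genes none of 9. Cell cycle genes had 1 of 3, Mki67, at 6.84 CPM (2 cells) and 73.0 CPM (25 cells), a ratio of 10.7 (2.82 to 90.1). The first of these levels is below that of 3 counts. Uptake and sensing genes had 2 of 6, Clec4n and Lyz2. The whole gate gave fewer calls: 5 of 87 list genes, with Il12b (54.9 and 234 CPM) and Cxcl9 higher and Tlr2, Ifit1 and Ifit3 lower. Ifit1 and Ifit3 had no UMI in the mature-cluster members labelled KPC-shV. Their RNA lay in the members outside both dendritic clusters, at 45.0 and 12.4 CPM for Ifit1 and 56.3 and 12.1 CPM for Ifit3.

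Outside the lists, the genes farthest apart in the mature-cluster members were mostly genes of other cell types or of few cells. The largest ratio above 1 belonged to Egf, at 3.42 CPM (1 cell) and 162 CPM (22 cells). Krt19 stood at 17.1 and 94.0 CPM and Ctrb1, a digestive enzyme of acinar cells, at 30.8 and 127 CPM. The acinar list summed to 47.9 and 255 CPM here and to 138 and 569 CPM in neutrophils. At the other end Cadm2 stood at 198 CPM, all from 1 cell, and 2.47 CPM, and S100a8, a neutrophil gene, at 547 and 150 CPM.

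Compared with the type 1 and type 2 gates together (22 and 49 cells), the whole gate described its own composition. Of 6906 genes, 632 (9.15%) were at least 2-fold higher in both libraries and 335 (4.85%) lower. Migration genes without Ccr7 and Fscn1, which the gate used, had 4 of 10 higher and none lower (median log2 ratio, 0.82, against 0.11 over all genes). Class II genes without those of the gate had 4 of 7 lower. Type 1 markers, of which Xcr1 and Clec9a chose the type 1 comparison cells, had 8 of 9 lower. Tumour epithelium markers had 3 of 5 higher and fibroblast markers 2 of 4 higher, and Col12a1, Tnc and Acta2, genes of fibroblasts, were among the 10 genes with the largest ratios beside Cacnb3, Syn3, Il15ra and Ccl5. Against the Ccl17-led cells the mature-cluster members had none of these epithelial or fibroblast markers higher.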

How the data were processed

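The authors deposited raw UMI counts, by gene and barcode, from Cell Ranger 7.0.1 and the mm10 build, filtered to called cells. Whether intronic reads were counted is not given in the sources used here. The counts were used as deposited, and the 2 libraries were grouped by their labels.

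The members, gene lists and comparisons were chosen with earlier results of these data known. UMIs were summed per gene over the cells of a set and divided by the set's total to give CPM, with exact Poisson 95% intervals. Shares have exact Clopper-Pearson intervals, and ratios an exact interval conditional on the sum. These cover counting error only, and with 1 library per group no p-value was computed. Genes with at least 20 CPM in the mean were called past 2-fold after 1 CPM was added, and log2 ratios are on that scale. Named genes were those of the fixed lists (105 genes, of which Mx1 and Clec7a are not analysed here) and the 10 with the largest and smallest ratios, with at least 50 UMIs and 50 CPM. Cells were clustered with scanpy 1.11.5 and leidenalg 0.10.2 (resolution 1, 30 components of 2000 variable genes, 20 neighbours). Keratin, collagen and endothelial clusters had at least 1500 CPM of those markers. Doublets were scored with Scrublet and kept. Tumour cells had at least 5 UMIs and 0.2% of Krt8, Krt18 and Krt19 and no Ptprc. Neutrophils had at least 1% S100a8 and S100a9, at least 1 UMI of Csf3r and fewer than 10 class II UMIs. Type 1 cells had at least 2 UMIs of Xcr1 and Clec9a, and type 2 cells 1 of Cd209a and 1 of Flt3, under the other limits of the gate. Identifiers of 32235 of 32285 genes were in the annotation of GRCm38, whose coordinates are 1-based. The scripts were tested on simulated counts. Alternatives varied the gate, the cells kept, the denominator, the scaling and the filters.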

Additional observations from a re-analysis of the deposited data

How the results depend on the processing

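No paired analysis was possible because each group has 1 library. Of the values that answer a comparison, 88 alternative values stayed close to the main one and 38 moved. Of those for single genes and for medians of gene lists, 761 stayed, 101 moved and 11 reversed. The cause of the moves was not tested. Alternatives on the mature cluster, on both clusters and on a gate sum of at least 20 UMIs were chosen after seeing the data. The ratio of shares was 3.28 with at least 30 class II UMIs, 1.80 outside neutrophils, 1.52 among class II cells and 1.02 among the 3 dendritic gates. Between libraries, the 136 genes higher in gate members became 248 with Fscn1 out of the gate sum, 483 with 30 class II UMIs, 289 in the mature cluster, 230 at 20 gate UMIs, 89 with 10 CPM added and 59 at 50 CPM. The 46 lower became 75 at 8 gate UMIs, 114 with Fscn1 out, 136 with 30 class II UMIs, 26 without an upper UMI limit, 212 in the mature cluster, 93 in both clusters, 379 at 20 gate UMIs and 20 at 50 CPM. The 5 list genes past 2-fold became 9 with Fscn1 out or 30 class II UMIs, 3 with no C1q limit, as a mean over cells or without the 5 deepest cells, 14 in the mature cluster, 10 in both clusters, 15 at 20 gate UMIs and 2 at 50 CPM. In the mature cluster the 289 higher became 163 with 10 CPM added and 79 at 50 CPM, the 212 lower 354 without the 5 deepest cells, 110 with 10 CPM added and 57 at 50 CPM, and the 14 list genes 8 at 50 CPM. Against the other dendritic gates the 632 higher became 313 with Fscn1 out, 363 in both clusters and 388 at 20 gate UMIs, and the 335 lower became 201 with Fscn1 out and 652 in the mature cluster. Ifit3 and Ifit1, lower in gate members, reversed to log2 ratios of 1.32 and 0.94 with Fscn1 out, 0.11 and 0.66 with 30 class II UMIs, 1.80 and 2.24 in the mature cluster, 1.51 and 0.28 in both clusters, 3.17 and 1.38 at 20 gate UMIs, and Ifit3 to 0.10 without the 5 deepest cells. The class II list, with a median log2 ratio of 0.54 in gate members, stood at -0.30 with 30 class II UMIs, a setting that selects on the same genes. Leaving out members with RNA of other cell types left 1 and 0 cells, so it gave no value. With 24 and 65 cells in the mature cluster, few cells decide genes of low level.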
